A study of Cricetulus griseus with 6 samples.

Results

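The genes described here encode splicing factors and proteins of the small nuclear ribonucleoprotein particles (snRNPs), taken from an RNA-Seq comparison of CHO-T cells treated with *Xbp1* siRNA or control siRNA. Members were chosen by symbol: SR proteins (*Srsf*), heterogeneous nuclear ribonucleoproteins (*Hnrnp*), subunits of splicing factor 3 (*Sf3a* and *Sf3b*), proteins named for the snRNP (*Snrp*), LSm proteins (*Lsm*), and pre-mRNA processing factors (*Prpf*), each with a mean of at least 0.1 FPKM over the 6 libraries. FPKM, fragments per kilobase of transcript scaled by the mapped fragments of the library, is corrected for transcript length, so levels can be set side by side between genes. Of 75 symbols that matched, 73 were members, among 14361 genes tested and 27873 entries in all. *Snrpn*, which encodes an SmB-like protein best known from neurons, and *Srsf12* were listed at 0 in all 6 libraries. *Srsf2*, *Hnrnpa0*, and *Prpf6* have no entry under those symbols and were not analysed here. The members divide into 9 *Srsf*, 19 *Hnrnp*, 9 *Sf3*, 11 *Snrp*, 13 *Lsm*, and 12 *Prpf* genes.

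CHO cells are an established line from Chinese hamster ovary, and CHO-T cells stably express T-cadherin (*Cdh13*). They were made by infection with a retrovirus that carries mouse T-cadherin cDNA, followed by puromycin selection, so all libraries of both groups share the transgene, which a retroviral element drives. Whether the line is a single clone is not stated. The groups are CHO-T cells transfected with negative control siRNA (n = 3) and CHO-T cells transfected with *Xbp1* siRNA (n = 3). XBP1 is a transcription factor of the unfolded protein response, and its silencing was used in the study to activate IRE1α and to look for the pathway that limits the release of extracellular vesicles. The labels do not say whether the 3 libraries of a group came from separate cultures, and the study's methods speak of independent biological experiments in general without naming these libraries, so p-values measure the spread between these libraries, which may be technical.

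Introns are removed by the spliceosome, which assembles on each pre-mRNA from U1, U2, U4, U5, and U6 snRNPs. Most snRNPs are built on a ring of Sm proteins, whereas U6 carries a ring of the related LSm proteins, and SF3a and SF3b join U2 at the branch point. SR proteins and hnRNPs bind the pre-mRNA itself and, often with opposite effects, steer the choice of splice sites. *Xbp1* mRNA itself is spliced outside this machinery: IRE1α cuts it and the tRNA ligase RTCB joins the ends.

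*Xbp1* was 26.0, 26.2, and 28.4 FPKM in the control libraries and 2.18, 2.11, and 1.39 FPKM in the *Xbp1* siRNA libraries, and *Cdh13* was 85.2 ± 0.478 FPKM (mean ± SD, n = 3) and 32.9 ± 0.476 FPKM (n = 3). The FPKM of all entries summed to 655927 ± 9851 in the control libraries and 597243 ± 3750 in the *Xbp1* siRNA libraries, 91.05% of control (SD, n = 3 each). Read depth is not stated, and the steps between FPKM values of weak genes put it between 94.0% and 116.2% of the first control library, a rough estimate because 8.3% to 13.3% of the weak genes lay on the inferred step in the other libraries. Of 7 fibroblast-like markers 5 were at 1 FPKM or more, with *Col1a1* and *Col1a2* at 0, and their sum ranged from 414 to 439 FPKM in control and 341 to 368 FPKM in *Xbp1* siRNA libraries. Of 4 epithelial markers found, *Epcam* alone reached 1 FPKM, *Krt18* and *Krt19* were at 0, and the sum was 1.83 to 2.16 against 4.59 to 5.79 FPKM. Of 6 ovarian endocrine markers found, *Amh* and *Inha* reached 1 FPKM, *Fshr* and *Lhcgr* were at 0, and the sum was 5.36 to 7.14 against 5.95 to 8.56 FPKM. The 6 immune markers summed to at most 0.154 FPKM in any library. The part of these shifts in the results was not tested, and in bulk RNA fewer cells of a kind and less RNA per cell cannot be told apart.

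In the FPKM as deposited, splicing genes were modestly lower after *Xbp1* siRNA, with a median log2 fold change of -0.13, and the decreases were uneven among them. The median was -0.06 with quantile normalization and 0.00 when libraries were scaled to the same FPKM sum. Of the 73 members, 34 fell and 6 rose at an adjusted p under 0.05 (limma with Benjamini-Hochberg adjustment over all 14361 genes), and 33 did not pass. Fallen members thus made up 46.6% of the members, where 20.2% of all genes tested and 30.2% of the 7458 genes with a mean of at least 10 FPKM passed in that direction. Risen members made up 8.22%, where 20.2% of all genes and 24.1% of the abundant genes passed. The abundant genes are closer to the members in level, since 72 of the 73 members had a mean of at least 10 FPKM, but they are not matched to them: the median level was 85.8 FPKM over the members and 30.5 FPKM over the abundant genes. Fold changes were lower at higher levels in both, with Spearman's rho of -0.28 over the 73 members and -0.13 over the abundant genes, points that share the same 6 libraries, and the part of the level in the shares was not tested. The split depended on how libraries were put on a common scale. Scaling to the same FPKM sum moved the median of all genes from 0.01 to 0.14 on the log2 scale, and 22 members (30.1%) then passed as lower and 16 (21.9%) as higher, where 13.0% of all genes passed as lower and 31.7% as higher, and 18.8% and 40.7% of abundant genes. Quantile normalization gave 28 lower (38.4%) and 9 higher (12.3%), where 18.5% and 21.7% of all genes, and 24.8% and 29.6% of abundant genes, passed. Calls on single members moved with this. With the FPKM sum 12 fallen members no longer passed, namely *Hnrnph3*, *Hnrnpd*, *Hnrnpdl*, *Hnrnpm*, *Hnrnpk*, *Lsm12*, *Prpf39*, *Sf3b4*, *Sf3a3*, *Snrpd3*, *Srsf7*, and *Srsf4*, and 10 that had not passed did so as higher. With quantile normalization 6 were lost, namely *Hnrnpa1*, *Hnrnpd*, *Hnrnpk*, *Sf3a3*, *Snrpb*, and *Snrpd3*, and *Hnrnpc*, *Sf3b6*, and *Srsf6* passed as higher. Relative to the median of all genes, the members' median log2 fold change was -0.14 as deposited, -0.13 with the FPKM sum, and -0.08 with quantile normalization. Relative to the abundant genes it was -0.11, -0.11, and -0.09. Scaling to the FPKM sum shifts all genes by nearly the same amount, so its relative values match those as deposited by construction.

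Most of the shifts were small. The members' log2 fold changes, *Xbp1* siRNA over control siRNA, ranged from -1.42 to 1.11 with a median of -0.13, and 66 of 73 lay within 0.5 of 0. Only 3 members also passed a fold limit of 1 on the log2 scale: *Lsm14b* rose and *Lsm2* and *Snrpd1* fell, where 2.69% of all genes passed both limits as higher and 2.5% as lower. Among genes of at least 10 FPKM these shares were 0.603% and 2.35%. A fold change as low as that of *Lsm2* or lower was found in 0.912% of abundant genes, and 2.08% were as low as *Snrpd1*. A fold change at or above that of *Lsm14b* was found in 0.536% of them. In 39 members every *Xbp1* siRNA library was below every control library and in 7 every one was above, where 25.8% and 26.1% of all genes, and 35.0% and 28.8% of abundant genes, did so.

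**Figure D1:**
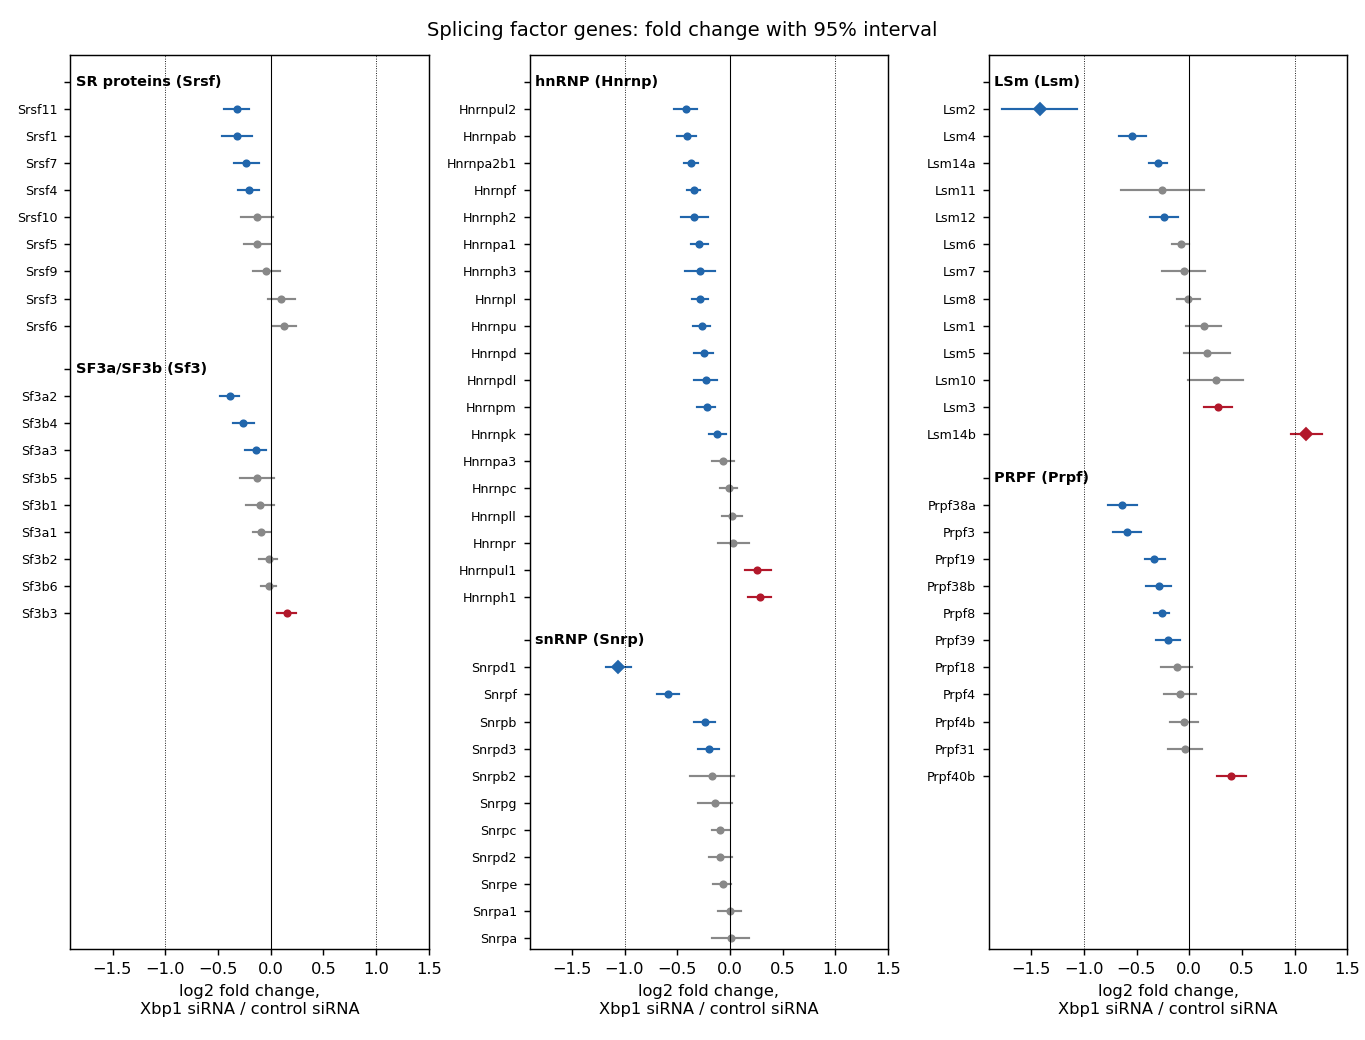
Log2 fold change (*Xbp1* siRNA over control siRNA, on the log2(FPKM + 0.1) scale) of 72 of the 73 members by family; points are the fitted values, bars their 95% confidence intervals, blue and red mark members that passed as lower or higher at an adjusted p under 0.05, grey those that did not pass, and diamonds those past both limits. Most points lie slightly to the left of 0, with *Lsm2* (-1.42) and *Snrpd1* (-1.06) far to the left and *Lsm14b* (1.11) far to the right; scaling to the FPKM sum shifts all points to the right and leaves 22 rather than 34 lower.

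The SR proteins bind exonic enhancers through RNA recognition motifs and recruit other factors through their arginine-serine domains. Of 9 members, *Srsf1*, *Srsf4*, *Srsf7*, and *Srsf11* fell and none rose in the FPKM as deposited. That is 44.4%, where 20.2% of all genes and 30.2% of abundant genes fell. Scaled to the FPKM sum, 2 passed as lower (22.2%, near the 18.8% of abundant genes). As higher 2 passed (22.2%), where 40.7% of abundant genes did. With the FPKM sum *Srsf4* (-0.07, adjusted p = 0.192) and *Srsf7* (-0.09, adjusted p = 0.211) did not pass. *Srsf1*, the founding splicing activator of the family, was 151, 158, and 172 FPKM in control and 120.0, 131, and 133 FPKM in *Xbp1* siRNA libraries. The groups did not overlap, and the log2 fold change was -0.32 (SE 0.059, adjusted p = 0.00398, limma). *Srsf11*, a U2AF-binding SR-type protein, was 64.9, 69.7, and 68.7 against 51.4, 54.8, and 56.1 FPKM, also without overlap (log2 fold change -0.32, SE 0.048, adjusted p = 0.00142). *Srsf5*, the SR gene with the highest mean, was 150.0, 163, and 157 against 135, 151, and 143 FPKM. Its groups overlapped, since the second *Xbp1* siRNA library exceeded the first control library (log2 fold change -0.13, adjusted p = 0.08). *Srsf3* and *Srsf6* had positive log2 fold changes of 0.10 and 0.13 that did not pass, with 95% intervals of -0.03 to 0.23 and 0.02 to 0.24. Both passed as higher with the FPKM sum (0.23, adjusted p = 0.0138, and 0.26, adjusted p = 0.00342), and *Srsf6* also with quantile normalization (0.18, adjusted p = 0.0209). The family's median log2 fold change was -0.13 as deposited and -0.07 with quantile normalization, and it vanished to 0.00 with the FPKM sum.

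The hnRNPs are abundant nuclear proteins that coat nascent transcripts and often silence splice sites. As deposited, they held the highest share of fallen genes of the 6 families. Of 19 members 13 fell (68.4%), 2 rose, and 4 did not pass, where 20.2% of all genes and 30.2% of abundant genes fell. With the FPKM sum 8 passed as lower (42.1%, close to the 41.7% of *Prpf*) and 4 as higher (21.1%). Of abundant genes 18.8% and 40.7% then did so. The median log2 fold change of -0.25 remained negative with quantile normalization (-0.12) and with the FPKM sum (-0.11). Among the 6 genes of the A/B and D types 5 fell (3 with the FPKM sum). *Hnrnpab* was 232, 225, and 230.0 FPKM in control and 166, 172, and 180.0 FPKM in *Xbp1* siRNA libraries, with no overlap (log2 fold change -0.41, SE 0.038, adjusted p = 1.63e-04). *Hnrnpa1* and *Hnrnpa2b1*, the classic binders of exonic silencers, fell by 0.29 and 0.37 on the log2 scale. The member that did not pass was *Hnrnpa3*, at 341 FPKM in control and 325 FPKM in *Xbp1* siRNA cells, whose groups overlapped (log2 fold change -0.07, 95% interval -0.17 to 0.04; without the first control library it passed as lower, adjusted p = 0.0427).

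Within the F/H type, which binds G-rich runs, the genes went opposite ways. *Hnrnpf*, the hnRNP gene with the highest mean, was 500.0, 512, and 504 FPKM in control and 395, 403, and 396 FPKM in *Xbp1* siRNA libraries. Libraries of a group lay close together and the groups were far apart (log2 fold change -0.34, SE 0.026, adjusted p = 6.11e-05). The change was smaller with quantile normalization (-0.16, adjusted p = 0.00234) and with the FPKM sum (-0.21, adjusted p = 8.2e-04). *Hnrnph2* and *Hnrnph3* fell by 0.34 and 0.28 on the log2 scale. *Hnrnph1*, by contrast, rose from 53.0, 52.7, and 58.0 to 65.7, 66.4, and 66.4 FPKM, with no overlap (log2 fold change 0.28, SE 0.046, adjusted p = 0.00224).

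The U-type genes divided as well. *Hnrnpul2*, which encodes an hnRNP U-like protein, was 63.8, 58.4, and 58.9 FPKM in control and 45.1, 44.0, and 46.3 FPKM in *Xbp1* siRNA libraries, the largest decrease of the family among those that passed (log2 fold change -0.42, SE 0.047, adjusted p = 3.70e-04). Its paralog *Hnrnpul1* was 57.8, 53.0, and 60.3 FPKM and then 69.9, 68.9, and 66.3 FPKM. Every *Xbp1* siRNA library was above every control library for *Hnrnpul1* and below every control library for *Hnrnpul2* (log2 fold change of *Hnrnpul1* 0.26, SE 0.054, adjusted p = 0.00638). *Hnrnpu*, a chromatin-associated scaffold, *Hnrnpl*, which binds CA repeats, and *Hnrnpm* fell by 0.27, 0.28, and 0.22 on the log2 scale. *Hnrnpk*, a poly(C)-binding protein, fell by 0.12 as deposited, a change that turned to 0.02 with the FPKM sum and with quantile normalization. *Hnrnpc*, which binds uridine tracts, was 340 FPKM in control and 337 FPKM in *Xbp1* siRNA cells, and its 95% interval ran from -0.09 to 0.07. It passed as higher with the FPKM sum (0.12, adjusted p = 0.0155) and with quantile normalization (0.13, adjusted p = 0.0102), both outside that interval.

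SF3a and SF3b hold the U2 snRNP on the branch point, and the fitted log2 fold changes of their genes lay between -0.39 and 0.15. Of 9 members 3 fell (33.3%, near the 30.2% of abundant genes), 1 rose, and 5 did not pass, and the median log2 fold change of -0.10 as deposited was -0.02 with quantile normalization and 0.03 with the FPKM sum. *Sf3a2* was 102, 94.9, and 95.9 FPKM in control and 76.2, 72.6, and 74.3 FPKM in *Xbp1* siRNA libraries, with no overlap (log2 fold change -0.39, SE 0.040, adjusted p = 2.41e-04). *Sf3b4*, which contacts the pre-mRNA near the branch point, was 157, 151, and 164 FPKM against 132, 126, and 136 FPKM (log2 fold change -0.26, SE 0.044, adjusted p = 0.00255). These groups did not overlap either, but *Sf3b4* missed the threshold with the FPKM sum (-0.13, adjusted p = 0.0532). *Sf3b3* was 82.2, 88.6, and 84.3 FPKM and then 92.0, 95.6, and 95.6 FPKM (log2 fold change 0.15, adjusted p = 0.0190). That call did not outlast the removal of control library 1 or 3 or *Xbp1* siRNA library 2 or 3, which gave adjusted p between 0.0504 and 0.0659. *Sf3b1*, the subunit that clasps the branch helix, did not pass (log2 fold change -0.10, 95% interval -0.23 to 0.03), nor did *Sf3b6*, whose product sits at the branch adenosine (-0.02, 95% interval -0.09 to 0.05). *Sf3b6* did pass as higher with the FPKM sum (0.12, adjusted p = 0.0210) and with quantile normalization (0.09, adjusted p = 0.0395). *Sf3b5*, the SF3 gene with the highest mean, was 227, 192, and 204 FPKM against 200, 179, and 189 FPKM, with overlapping groups.

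The Sm proteins form the heptameric ring that U1, U2, U4, and U5 snRNAs share, so the levels of their genes can be read against each other. Of the 7 Sm ring genes 4 fell (57.1%), and the decreases were unequal. Over all 11 *Snrp* genes these 4 made up 36.4%, where 20.2% of all genes and 30.2% of abundant genes fell. With the FPKM sum 3 of the 11 passed as lower (27.3%), where 18.8% of abundant genes did. With quantile normalization 2 did, where 24.8% of abundant genes passed as lower. *Snrpd1*, which encodes SmD1, was 274, 263, and 264 FPKM in control and 120.0, 128, and 137 FPKM in *Xbp1* siRNA libraries. The *Xbp1* siRNA mean of 128 ± 8.50 FPKM was 48.1% of the control mean of 267 ± 6.22 FPKM (SD, n = 3 each), and no library came near the other group. The log2 fold change was -1.06 (SE 0.050, adjusted p = 7.28e-06), and at -0.94 with quantile normalization and -0.92 with the FPKM sum it stayed past the adjusted p but not past the fold limit. *Snrpf*, which encodes SmF, was 340.0, 322, and 319 FPKM against 210.0, 229, and 213 FPKM, again without overlap (log2 fold change -0.59, SE 0.044, adjusted p = 5.54e-05).

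*Snrpb*, the gene of SmB/B′ and the *Snrp* member with the highest mean, was 315, 303, and 295 FPKM in control and 255, 249, and 269 FPKM in *Xbp1* siRNA libraries. The groups did not overlap (log2 fold change -0.24, SE 0.041, adjusted p = 0.00283), but the call was lost with quantile normalization (-0.07, adjusted p = 0.135). *Snrpd3* fell by 0.20 on the log2 scale as deposited, a call lost with the FPKM sum (-0.06, adjusted p = 0.207) and with quantile normalization (-0.04, adjusted p = 0.397). *Snrpd2*, *Snrpe*, and *Snrpg* overlapped between groups, with log2 fold changes of -0.09, -0.07, and -0.14. Relative to the median of the other 6 ring genes in the same library, a measure that no scaling of whole libraries by a factor can move, *Snrpd1* stood at 104% ± 1.59 in control and 58.6% ± 1.18 in *Xbp1* siRNA cells, and *Snrpf* at 128% ± 1.86 and 103% ± 7.74 (SD, n = 3 each). The U1 proteins *Snrpa* and *Snrpc* and the U2 proteins *Snrpa1* and *Snrpb2* did not pass. *Snrpa* was 138 FPKM in both groups (95% interval of the log2 fold change -0.17 to 0.18). Over the 11 *Snrp* genes the median was -0.14 as deposited, 0.00 with quantile normalization, and -0.01 with the FPKM sum. It was -0.21 without the third *Xbp1* siRNA library and -0.09 without the first.

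**Figure D2:**
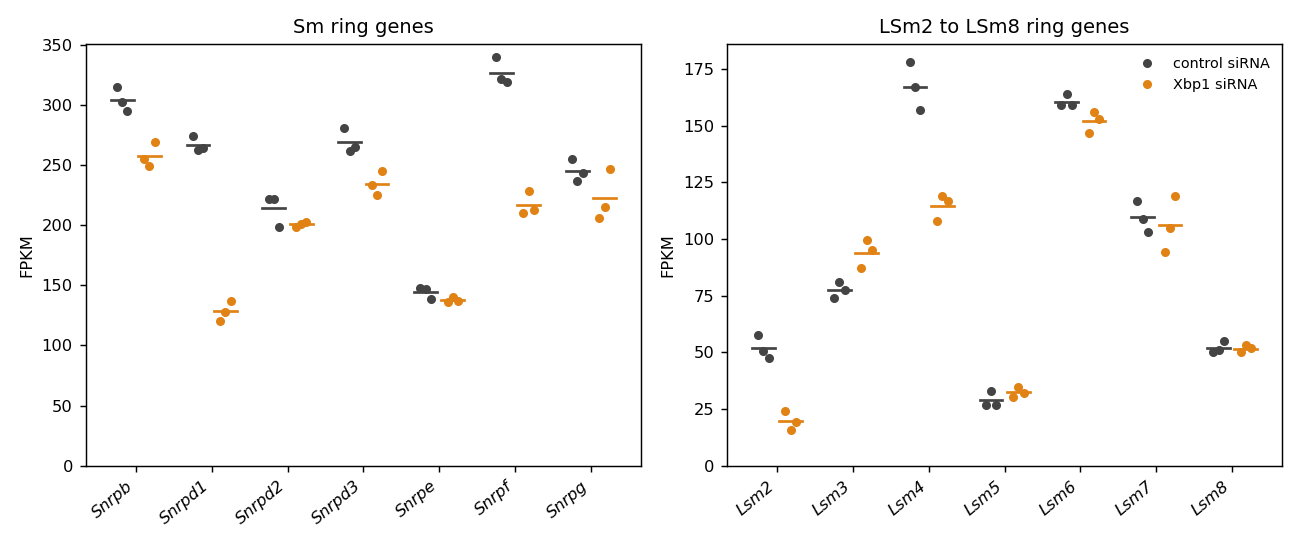
FPKM (linear axis from 0) of the genes of the Sm ring and of the U6 LSm ring; each point is 1 library, 3 per group, and horizontal lines mark group means. *Snrpd1* drops from 267 to 128 FPKM and *Lsm2* from 51.9 to 19.6 FPKM, whereas several partners in the same ring, such as *Snrpe* and *Lsm8*, overlap between groups.

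LSm2 to LSm8 make the ring that binds the end of U6 snRNA, and 2 of their 7 genes fell, 1 rose, and 4 did not pass. The 28.6% that fell, like the 30.8% of all 13 *Lsm* genes, lay near the 30.2% of abundant genes. *Lsm2* was 57.5, 50.5, and 47.5 FPKM in control and 24.1, 15.5, and 19.1 FPKM in *Xbp1* siRNA libraries, which is 37.7% of control on average. The highest *Xbp1* siRNA library was far below the lowest control library, and *Lsm2* had the lowest fold change of all members (log2 fold change -1.42, SE 0.15, adjusted p = 3.05e-04). *Lsm4* was 178, 167, and 157 FPKM against 108, 119, and 117 FPKM (log2 fold change -0.54, SE 0.055, adjusted p = 2.45e-04). *Lsm3* went the other way, from 74.2, 81.0, and 77.7 to 87.4, 99.6, and 95.1 FPKM, with no overlap (log2 fold change 0.27, SE 0.057, adjusted p = 0.00694). *Lsm6*, the family's gene with the highest mean, was 159, 164, and 159 FPKM against 147, 156, and 153 FPKM. Although its groups did not overlap, the log2 fold change of -0.08 did not pass (adjusted p = 0.0991), and it turned to 0.02 with quantile normalization and 0.05 with the FPKM sum. *Lsm8*, which marks the nuclear ring, was 52.0 and 51.7 FPKM (95% interval of the log2 fold change -0.12 to 0.10). Relative to the median of the other 6 genes of its ring, *Lsm2* went from 55.3% ± 4.24 to 19.9% ± 5.96 and *Lsm4* from 253% ± 16.1 to 158% ± 1.82 (SD, n = 3 each).

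The remaining LSm genes serve mRNA decay, the U7 snRNP of histone pre-mRNA, or other tasks. *Lsm14b*, which encodes a P-body and translational control protein of the RAP55 type rather than a core splicing factor, was 17.1, 18.1, and 15.5 FPKM in control and 36.1, 36.4, and 36.9 FPKM in *Xbp1* siRNA libraries. The groups were far apart, and *Lsm14b* had the highest fold change of all members, 2.16-fold in FPKM (log2 fold change 1.11, SE 0.063, adjusted p = 1.61e-05). Its paralog *Lsm14a* fell, from 59.3 to 48.3 FPKM (log2 fold change -0.30), as did *Lsm12* (-0.24). *Lsm1*, which replaces LSm8 in the cytoplasmic decay ring, did not pass as deposited (0.14, 95% interval -0.03 to 0.30) but passed as higher with the FPKM sum (0.27, adjusted p = 0.0116). The U7 genes *Lsm10* and *Lsm11* did not pass either as deposited, although *Lsm10* passed as higher with the FPKM sum (0.38, adjusted p = 0.0271), as did *Lsm5* of the U6 ring (0.31, adjusted p = 0.0326). *Lsm11* was the weakest member, at 1.40 and 1.15 FPKM. The median of the 13 *Lsm* genes was -0.05 as deposited, 0.02 with quantile normalization, 0.08 with the FPKM sum, and 0.01 without the first *Xbp1* siRNA library.

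Among the PRPF genes, which are named after yeast precursor RNA processing mutants and act in different particles, 6 of 12 fell, 1 rose, and 5 did not pass. The 50.0% that fell stood beside 20.2% of all genes and 30.2% of abundant genes. With the FPKM sum 41.7% passed as lower and 16.7% as higher, where 18.8% and 40.7% of abundant genes did so. *Prpf38a*, a factor of the precatalytic spliceosome, was 107, 107, and 116 FPKM in control and 75.0, 65.9, and 72.0 FPKM in *Xbp1* siRNA libraries, with no overlap (log2 fold change -0.64, SE 0.057, adjusted p = 1.33e-04). *Prpf3*, a protein of the U4/U6 particle, was 55.8, 57.7, and 58.6 FPKM against 35.2, 38.8, and 40.3 FPKM (log2 fold change -0.59, SE 0.057, adjusted p = 1.80e-04). Its U4/U6 partners *Prpf4* and *Prpf31* did not pass, with log2 fold changes of -0.09 and -0.04 and 95% intervals of -0.24 to 0.06 and -0.20 to 0.12. *Prpf8*, the U5 protein at the catalytic core and the *Prpf* gene with the highest mean, was 273, 282, and 281 FPKM against 229, 234, and 235 FPKM (log2 fold change -0.26, SE 0.029, adjusted p = 3.83e-04). Here too the groups did not overlap, and the change was smaller with quantile normalization (-0.10, adjusted p = 0.0385) and with the FPKM sum (-0.12, adjusted p = 0.0176). *Prpf19*, the ubiquitin ligase of a complex that activates the spliceosome, *Prpf38b*, and the U1-associated *Prpf39* fell by 0.33, 0.29, and 0.20 on the log2 scale. *Prpf40b*, which is related to a yeast U1 protein, rose from 14.3, 13.3, and 14.0 to 19.2, 17.7, and 18.1 FPKM, with no overlap (log2 fold change 0.40, SE 0.059, adjusted p = 0.00146). The median of the family was -0.16 as deposited, -0.11 with quantile normalization, and -0.03 with the FPKM sum.

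Summed over its members, each family was lower after *Xbp1* siRNA in FPKM as deposited, and in none did the libraries of the groups overlap. The sum of all entries did not overlap between groups either. The *Snrp* genes summed to 2357, 2281, and 2235 FPKM in control and 1867, 1866, and 1963 FPKM in *Xbp1* siRNA libraries, 82.87% of control. *Snrpd1* (267 to 128 FPKM) and *Snrpf* (327 to 217 FPKM) had the largest decreases within this sum. The *Hnrnp* sum was 3545 ± 39.1 and 3068 ± 55.8 FPKM (86.55% of control) and the *Prpf* sum 824 ± 17.5 and 687 ± 10.7 FPKM (83.33%; SD, n = 3 each). The *Srsf*, *Lsm*, and *Sf3* sums came to 89.45%, 91.37%, and 92.51% of control. These shares are to be read against the 91.05% of all entries, which the *Lsm* and *Sf3* sums did not fall below. The *Srsf* sum lay close to it. After scaling to the FPKM sum the single genes that passed as lower and higher numbered 8 and 4 of the *Hnrnp* family, 5 and 2 of *Prpf*, 2 and 2 of *Srsf*, 3 and 5 of *Lsm*, and 1 and 3 of *Sf3*, while 3 *Snrp* genes passed as lower and none as higher. With that scaling 18.8% of abundant genes passed as lower and 40.7% as higher, so the higher shares of *Lsm* (38.5%) and *Sf3* (33.3%) did not exceed the background. All members together took 1.40% to 1.44% of the FPKM in control libraries and 1.32% to 1.36% in *Xbp1* siRNA libraries, with no overlap.

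**Figure D3:**
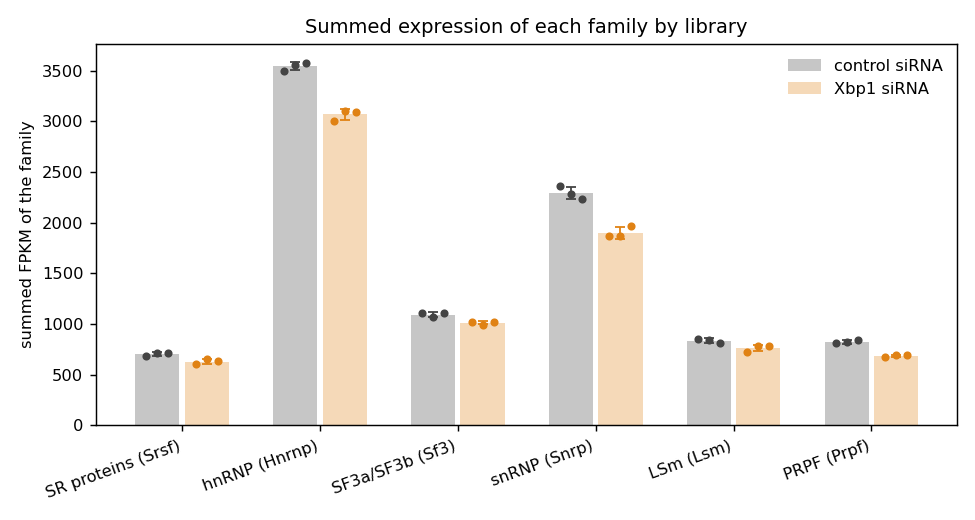
Summed FPKM of each family (linear axis from 0) in the 6 libraries; points are libraries, 3 per group, bars are group means, and whiskers are SDs. All *Xbp1* siRNA points lie below the control points of their family, at 82.87% (*Snrp*) to 92.51% (*Sf3*) of control, with all entries at 91.05%; relative to that total the *Lsm* and *Sf3* sums are not lower.

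**Figure D4:**
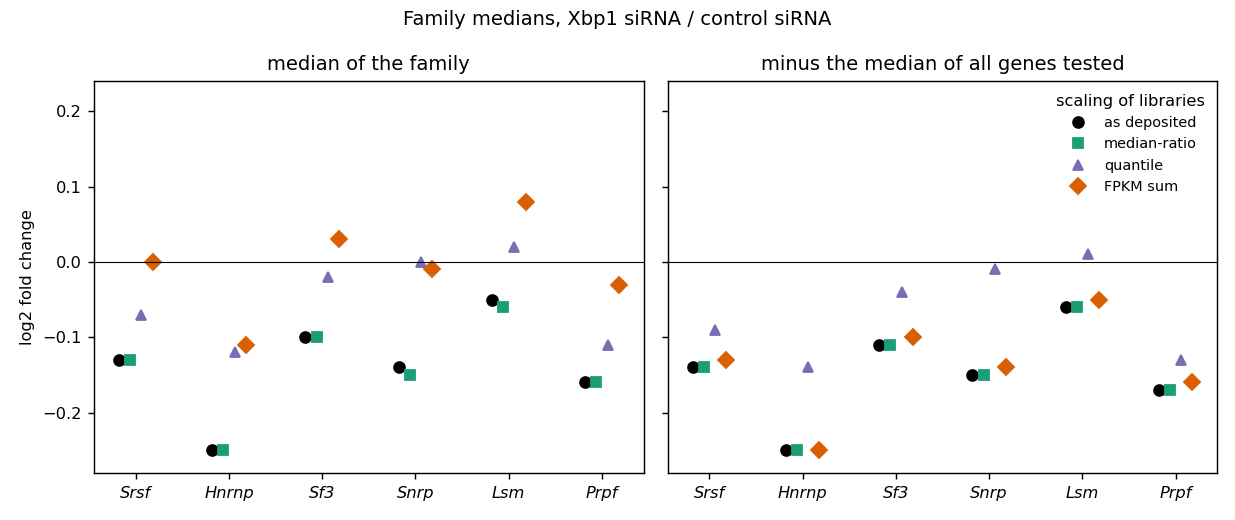
Median log2 fold change of each family, *Xbp1* siRNA over control siRNA, with 4 ways of scaling the libraries, as it is (left) and after subtracting the median of all genes tested (right). The left medians of *Srsf*, *Sf3*, *Snrp*, and *Lsm* reach or cross 0 under at least 1 scaling, while on the right *Hnrnp* lies at -0.25 as deposited and, by construction, with the FPKM sum, and at -0.14 with quantile normalization, and *Lsm* lies between -0.06 and 0.01.

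The ratio of related genes within a library is independent of any common scaling factor. For 7 pairs of relatives, chosen after their values were seen, the ratio was compared between groups by an exact two-sided permutation test, which with 3 libraries against 3 cannot give a p below 0.1. *Lsm14b* to *Lsm14a* went from 0.289, 0.308, and 0.258 in control to 0.763, 0.761, and 0.739 in *Xbp1* siRNA libraries, the widest shift of the 7 pairs (1.41 on the log2 scale). *Hnrnpul1* to *Hnrnpul2* went from 0.945 ± 0.0677 to 1.52 ± 0.0732 (SD, n = 3 each), so that the weaker of the pair in control cells on average was the stronger after *Xbp1* siRNA. The same held for *Hnrnph1* to *Hnrnph2*, at 0.871 ± 0.0420 and 1.33 ± 0.0698. *Hnrnph1* to *Hnrnph3* and *Hnrnpll* to *Hnrnpl* were higher by 0.57 and 0.30 on the log2 scale, and *Prpf38a* to *Prpf38b* was lower (-0.35). These 6 pairs did not overlap between groups (exact permutation p = 0.1, 0.117 after Benjamini-Hochberg adjustment over 7 pairs). This p is the smallest possible, for pairs chosen with their values known, so no conclusion was drawn from it or its adjustment. *Hnrnpdl* to *Hnrnpd* overlapped, at 0.152 ± 0.00795 and 0.154 ± 0.00657 (exact permutation p = 0.9). How the submitters' counting divided reads between near-identical copies, which are common for hnRNP and Sm genes, is not stated.

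**Figure D5:**
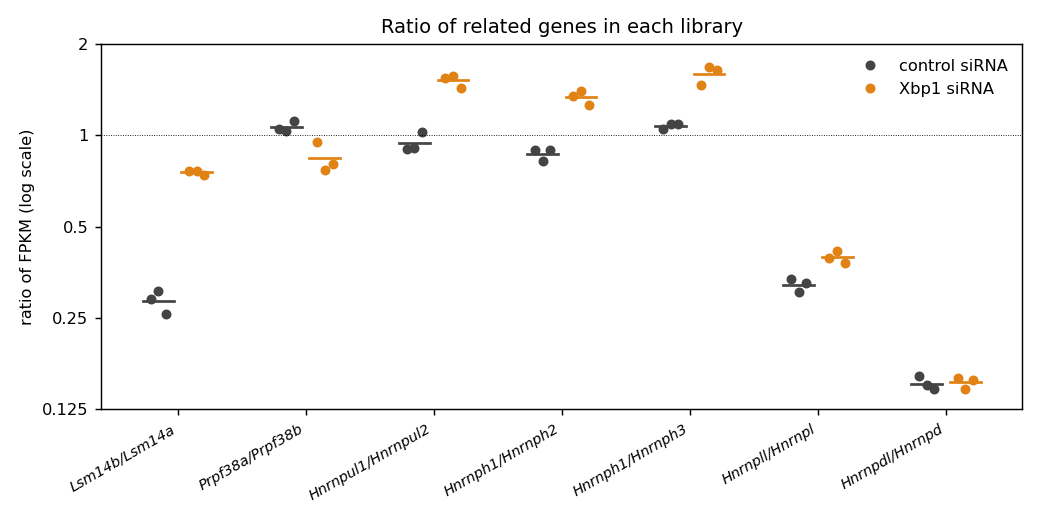
Ratio of the FPKM of related genes in each library (log axis); points are libraries, 3 per group, and horizontal lines mark group means. The *Lsm14b* to *Lsm14a* ratio goes from 0.285 to 0.755 on average, *Hnrnpul1* to *Hnrnpul2* and *Hnrnph1* to *Hnrnph2* cross 1 on average, and *Hnrnpdl* to *Hnrnpd* is 0.152 and 0.154.

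Of the 33 members that did not pass, 31 had a 95% interval within 0.5 of 0 on the log2 scale, the exceptions being *Lsm10* and *Lsm11*, and 28 had one within 0.3. These intervals hold for the FPKM as deposited and do not cover the choice of scaling, under which 10 of the 33 passed as higher with the FPKM sum and 3 with quantile normalization. Of the 40 that passed, 37 did so without each library in turn, and *Hnrnpk*, *Sf3a3*, and *Sf3b3* did not. Conversely, 9 members that had not passed did so without 1 of the libraries: *Hnrnpa3*, *Lsm1*, *Sf3b1*, and *Srsf10* without control library 1, *Lsm5* without control library 2, *Snrpd2* without control library 3, and *Srsf6*, *Srsf5*, and *Snrpg* without *Xbp1* siRNA library 1, 2, and 3, respectively. Across all 15 alternative ways of processing, 20 of the 34 fallen members and 5 of the 6 risen ones passed in the same direction each time. *Hnrnpk* was the fallen member that changed sign.

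Genes of splicing outside the rule were taken from lists by role. Of 111 listed genes 104 had an entry. *Sart3*, *U2af1l4*, *Dhx8*, *Luc7l2*, *Qk*, *Gemin7*, and *Ashwin* had none under those symbols. Of 104 genes 44 fell, 12 rose, and 48 did not pass, with a median log2 fold change of -0.11. These are 42.3% lower and 11.5% higher, where 20.2% of all genes passed in each direction and 30.2% and 24.1% of abundant genes. Quantile normalization gave 31 lower (29.8%) and 19 higher (18.3%), where 24.8% and 29.6% of abundant genes passed. With the FPKM sum 19 were lower (18.3%) and 31 higher (29.8%), where 18.8% and 40.7% of abundant genes passed, so that the share of lower list genes lay at that background. Among 14 snRNP proteins outside the rule 5 fell (with the FPKM sum 3 were lower and 6 higher), with the largest change in *Snrnp35* of the minor spliceosome, at 10.7, 12.5, and 9.54 FPKM in control and 4.67, 6.55, and 6.80 FPKM in *Xbp1* siRNA libraries (log2 fold change -0.86, adjusted p = 0.00461). Among 8 factors of the branch point and 3′ splice site 6 fell (with the FPKM sum 2 were lower and 1 higher), and *U2af2*, which reads the polypyrimidine tract, went from 198 ± 7.60 to 136 ± 10.1 FPKM (SD, n = 3 each; log2 fold change -0.54, adjusted p = 3.18e-04). Of 16 helicases and partners of PRPF19 7 fell and 1 rose (1 and 4 with the FPKM sum), and *Bcas2* fell by 0.32. Of 17 SR-related proteins and SR kinases 8 fell and 2 rose (3 and 5 with the FPKM sum), with the largest change in *Son*, a nuclear speckle protein that rose from 42.6 ± 1.51 to 60.5 ± 0.934 FPKM (SD, n = 3 each; log2 fold change 0.51, adjusted p = 7.16e-05).

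Of 9 genes of the exon junction complex, which is laid down on spliced mRNA, and of the UPF factors of nonsense-mediated decay that read it, 5 fell and 1 rose (2 and 2 with the FPKM sum). As background for this and the next lists, 30.2% of abundant genes passed as lower and 24.1% as higher. With the FPKM sum these shares were 18.8% and 40.7%. Of this list *Upf1* and *Upf2* were among the genes that fell, and *Upf3b* was the gene that rose, all 3 named after their values were seen. *Upf2* passed in all 15 alternatives. *Upf1* did not pass with the FPKM sum (-0.04, adjusted p = 0.528, limma) or with quantile normalization (-0.11, adjusted p = 0.0856). The groups of *Upf3b* overlapped, and its call (adjusted p = 0.0485) held in 6 of 15 alternatives and was lost with quantile normalization (adjusted p = 0.0559). *Magohb*, a core subunit, was 60.0, 57.6, and 60.2 FPKM in control and 34.2, 31.4, and 30.7 FPKM in *Xbp1* siRNA libraries, with no overlap (log2 fold change -0.88, adjusted p = 1.84e-05). Of 17 genes that assemble or export snRNPs 2 fell and 4 rose (1 and 7 with the FPKM sum), so more rose than fell. *Gemin5*, which recognises snRNAs for the SMN complex that loads Sm rings, had the largest change. It went from 20.6 ± 0.580 to 13.9 ± 0.521 FPKM (SD, n = 3 each; log2 fold change -0.56, adjusted p = 2.01e-04). The 4 that rose were *Strap*, *Ncbp1*, *Wdr77*, and *Coil* (0.09, 0.19, 0.28, and 0.37 on the log2 scale). Of the 5 genes of the tRNA ligase complex 3 fell and 2 rose (2 and 2 with the FPKM sum), and *Ddx1* showed the largest change (-0.38). *Rtcb*, the ligase of *Xbp1* mRNA, named here after its value was seen, was 77.7, 76.3, and 76.1 FPKM against 60.5, 61.0, and 58.7 FPKM (log2 fold change -0.35, adjusted p = 1.72e-04).

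Of 18 other splicing regulators 8 fell and 2 rose (5 and 4 with the FPKM sum). *Ptbp3* and *Mbnl1* were the 2 of all 104 list genes that passed both limits. That share was not above the background, since 2.5% of all genes and 2.35% of abundant genes passed both limits as lower. *Ptbp3*, a polypyrimidine tract-binding protein, was 32.2, 36.0, and 39.9 FPKM in control and 12.1, 14.1, and 12.7 FPKM in *Xbp1* siRNA libraries (log2 fold change -1.47, SE 0.091, adjusted p = 2.35e-05). *Mbnl1*, a muscleblind regulator of alternative exons, was 104, 113, and 119 FPKM against 40.8, 44.8, and 44.6 FPKM (log2 fold change -1.36, SE 0.061, adjusted p = 6.20e-06). Neither overlapped between groups. Their fitted log2 fold changes lay beyond that of *Snrpd1*, and that of *Ptbp3* was close to that of *Lsm2*, comparisons for which no test was made.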

How the data were processed

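Per the labels, total RNA was extracted with a miRNeasy kit and libraries were made with a stranded mRNA kit. The authors deposited FPKM values, 1 library per file, by gene symbol. The submitters' processing notes name HISAT2 2.1.0 and Cuffdiff 2.2.1, and the genome build and annotation are not given in the sources used here. No read counts were at hand, so log2(FPKM + 0.1) of the 14361 genes with a mean of at least 0.1 FPKM was fitted with limma 3.58.1 in R 4.3.3 (lmFit, eBayes with trend, all 6 libraries, no replicate block), after a test on simulated data. Fold changes on this scale understate the change of weak genes. A gene passed at an adjusted p under 0.05 (Benjamini-Hochberg), and passed both limits if its log2 fold change was also 1 or more in size. Other steps used Python 3.11.15.

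Values in every library are given for members past both limits, for the 2 largest increases and 2 largest decreases of each family among those that passed with a mean of at least 1 FPKM, and for the gene with the highest mean of each family. From the lists, genes past both limits and the largest change of each list that passed are named. Members and lists were chosen with earlier results of these data known. The fit was repeated with a pseudocount of 0.01 or 1, with the low-value filter at 1 FPKM or dropped, with median-ratio and quantile scaling, eBayes without trend, a replicate block, each library left out and, chosen after seeing the data, scaling to the FPKM sum. A RefSeq gene table, used for names only, held all 73 symbols. The values of 1 member, counted throughout, are not reported here.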

Additional observations from a re-analysis of the deposited data

How the results depend on the processing

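Pseudocount, filter, and median-ratio scaling changed no count of members. With the FPKM sum, 16 members passed as higher and 22 as lower (6 and 34 as deposited), 31 and 19 of the list genes did so (12 and 44), where 31.7% of all genes passed as higher and 13.0% as lower, and 1 member passed both limits as lower instead of 2. Quantile normalization gave 19 list genes higher and 31 lower, and 1 member past both limits as lower. Both scalings moved the family medians: *Hnrnp* to -0.12 with quantile normalization and -0.11 with the FPKM sum, *Prpf* to -0.11 and -0.03, *Srsf* to -0.07 and 0.00, *Sf3* to -0.02 and 0.03, *Snrp* to 0.00 and -0.01, and *Lsm* to 0.02 and 0.08. Of the members given library by library, *Lsm6* turned to 0.02 and 0.05, *Sf3b5* to 0.01 and 0.00, and *Srsf5* to 0.00 with the FPKM sum; none of these 3 had passed. *Hnrnpk*, which had passed as lower, turned to 0.02 under both. The cause was not tested.

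Without each library in turn, medians ranged from -0.26 to -0.22 for *Hnrnp*, -0.09 to 0.01 for *Lsm* (positive without the first *Xbp1* siRNA library), -0.09 to -0.08 for *Sf3*, and -0.21 to -0.09 for *Snrp* (lowest without the third *Xbp1* siRNA library). Members passing ranged from 5 to 7 higher and 32 to 37 lower. Same-numbered libraries did not deviate together (correlations of -0.029, -0.027, and -0.012), so their numbers were not taken as pairs. A replicate block gave 7 members higher and 36 lower, and with it *Sf3b5* and *Srsf5* passed as lower (adjusted p = 0.0231 and 0.0180, limma) and *Lsm10* as higher (adjusted p = 0.0125). FPKM without read counts gives no counting error for single values, and this error was not measured for any member. *Lsm11* had the lowest mean, at 1.27 FPKM.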
